A study of Mus musculus with 12 samples.

Results

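The genes described here are 7 cytosolic sulfotransferases of mouse liver (Sult1a1, Sult1b1, Sult1c2, Sult1d1, Sult2a8, Sult3a1 and Sult5a1) and both PAPS synthases (Papss1 and Papss2). These 9 of the 36047 genes of the deposited tables were chosen by name, by a rule that used no values but with earlier results of these data known. RNA was sequenced from the livers of 12 adult male C57Bl/6J mice, 3 in each of 4 groups, on day 7 of the diets. RF.Ctrl mice ate a regular-fat diet with the full allowance of methionine and RF.SAAR mice a regular-fat diet restricted in sulfur amino acids (SAAR), while HF.Ctrl and HF.SAAR mice ate the high-fat forms of both. All 4 diets were free of cysteine, so the control groups also lacked it, and glutamic acid replaced the methionine that was removed. Mice received deuterium-labeled water by injection and for drinking, were housed singly and had food withdrawn for some hours before death. The regular-fat and high-fat diets came from different suppliers, so fat content and supplier cannot be told apart. The labels give no replicate numbers, and those used here only name a mouse. The titles run in 3 sets of 4 with 1 mouse per group, but the labels do not say what a set is. The main test therefore did not pair mice, and a fit with the set as a term is given at the end.

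Sulfonation attaches a sulfo group to hormones, bile acids, drugs and phenols, which usually makes them easier to excrete. The donor is PAPS (phosphoadenosine phosphosulfate), which the PAPS synthases make from ATP and inorganic sulfate. In liver much of that sulfate comes from oxidation of cysteine, and therefore from the methionine and cysteine of the diet. Cytosolic sulfotransferases (SULT enzymes) act on small molecules, whereas Golgi sulfotransferases modify proteins and carbohydrates.

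The 12 libraries held from 16203094 to 21230092 estimated counts. Counts were summed per gene, and differences were tested over 15061 features that passed a filter on low counts, by edgeR's quasi-likelihood test with Benjamini-Hochberg adjustment. A feature is called where the adjusted p is under 0.05. In whole liver, fewer cells of a type and less RNA per cell cannot be told apart. Levels are counts scaled to the TMM-adjusted total of each library (normalized CPM), which do not correct for transcript length. Of the 9 genes, 8 passed the filter and Sult3a1 did not. The 8 hepatocyte markers summed to 81540 to 95215 normalized CPM for RF.Ctrl and 72998 to 80014 for RF.SAAR, without overlap, and to 74803 to 88843 for HF.Ctrl and 73901 to 83751 for HF.SAAR. At regular fat all 8 had a negative log2 fold change and 0 were called (3 at an unadjusted p below 0.05), and over both fat levels 1, Fgb, was called lower. The part of this shift in the values of the sulfotransferases and PAPS synthases was not tested. The 34 pancreatic acinar markers summed to over 1000 normalized CPM in 5 mice, which were RF.Ctrl replicate 1, HF.Ctrl replicates 1 and 2, and HF.SAAR replicates 2 and 3, and reached 20038 in the last of these. Scaling by library size alone moved the median log2 fold change of all features by 0.16 for the regular-fat diets, 0.18 for the high-fat diets and 0.17 over both fat levels. With it, calls for SAAR vs. Ctrl over both fat levels became 2288 higher and 278 lower, against 474 and 553 with TMM.

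The upstream sequences of the 4 sulfotransferases called between SAAR and Ctrl livers over both fat levels are shown first, since these genes carry the main differences. Each is the stretch of 150 bases just before a RefSeq start site, 5′ to 3′ on the strand of the gene, from GRCm38.p6. Capitals mark matches to any of 8 short motifs on either strand.
Sult1a1, chr7:126676419-126676568, minus strand: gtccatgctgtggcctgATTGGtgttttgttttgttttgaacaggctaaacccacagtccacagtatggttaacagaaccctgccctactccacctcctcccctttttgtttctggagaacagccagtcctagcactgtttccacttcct
Sult1d1, chr5:87569007-87569156, minus strand: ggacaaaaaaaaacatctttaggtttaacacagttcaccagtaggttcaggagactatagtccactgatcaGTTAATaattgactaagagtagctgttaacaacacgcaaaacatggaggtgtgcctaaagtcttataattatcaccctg
Sult2a8, upstream start, chr7:14446588-14446737, minus strand: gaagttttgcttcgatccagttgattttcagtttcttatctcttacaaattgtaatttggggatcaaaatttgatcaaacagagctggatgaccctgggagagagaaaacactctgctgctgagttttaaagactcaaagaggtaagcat
Sult2a8, downstream start, chr7:14438552-14438701, minus strand: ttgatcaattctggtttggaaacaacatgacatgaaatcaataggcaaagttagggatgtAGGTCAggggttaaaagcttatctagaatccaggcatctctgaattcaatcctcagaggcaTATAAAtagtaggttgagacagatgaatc
Sult1b1, upstream start, chr5:87538196-87538345, minus strand: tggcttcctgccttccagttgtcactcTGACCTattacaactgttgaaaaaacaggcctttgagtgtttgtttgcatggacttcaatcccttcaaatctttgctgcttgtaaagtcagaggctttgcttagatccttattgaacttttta
Sult1b1, second start, chr5:87536223-87536372, minus strand: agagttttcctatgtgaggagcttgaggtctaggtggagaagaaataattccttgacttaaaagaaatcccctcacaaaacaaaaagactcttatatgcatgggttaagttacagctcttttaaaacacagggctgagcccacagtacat
The motifs were searched in 250 bases before each start, and their shares are of 32851 RefSeq promoters of the same length. They were TATAAA (core promoter box, in 12.4% of promoters), CCAAT (33.8%), AGGTCA (nuclear receptor half-site, 14.02%), TGATGNAA (C/EBP-ATF element, 3.45%), TGACNNNGC (antioxidant response core, 10.2%), TTCNNNGAA (STAT, 7.02%), GTTAAT (HNF1 half-site, 6.43%) and TTNNGCAA (C/EBP, 9.56%). Within the bases shown, Sult1a1 held a CCAAT match at -133 and Sult1d1 a GTTAAT match at -79, counted from the start site. The upstream start of Sult1b1 held an AGGTCA match at -123, while the second start of this gene held none of the 8. The downstream start of Sult2a8 held TATAAA at -29 and AGGTCA at -90. In the searched bases further upstream, which are not shown, Sult1a1 held GTTAAT at -232. There the downstream start of Sult2a8 held AGGTCA at -164 and CCAAT at -210. Its upstream start held TATAAA at -223 and TTNNGCAA at -217. These matches are descriptions of the letters only.

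Sult2a8, a bile acid sulfotransferase, was the most abundant of the 9 genes in every mouse. Levels are compared between genes only in TPM, which divides by transcript length. Sult2a8 had 602 to 947 TPM, followed by the phenol sulfotransferase Sult1a1 with 178 to 421 and by Sult1d1, which sulfonates catecholamines, with 72.7 to 192. Papss2, the main PAPS synthase of liver, had 28.8 to 52.4 TPM. Papss1 had 3.11 to 8.42. Each of these stood above the next in the order within all 12 mice, although the ranges of Sult1a1 and Sult1d1 overlapped between mice. Sult1b1 and Sult5a1 were neighbours that did not differ beyond their spread, with Sult1b1 higher in 7 of 12 mice. Papss1 was above Sult1c2 in 11 of 12 mice, with overlapping ranges. The ratio of Papss2 to Papss1 in TPM ran from 4.47 to 9.62 over the 12 mice.

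**Figure D1:**
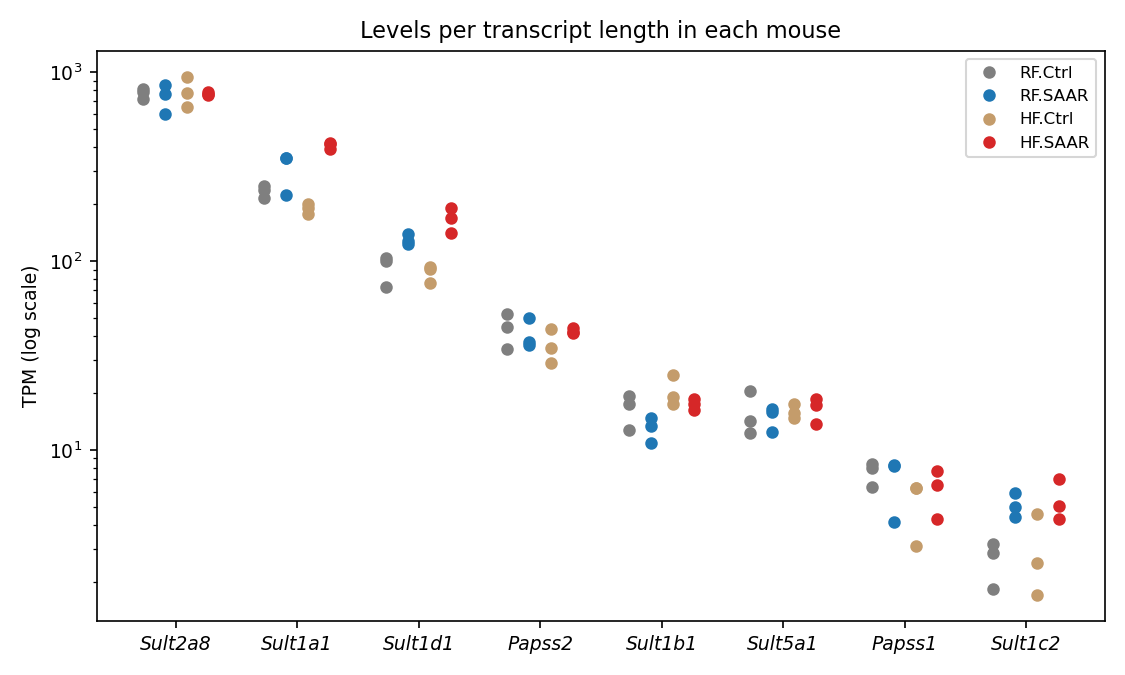
TPM (log axis) of the 8 genes above background in each of the 12 mice, 3 points per group, with genes ordered by their mean. Sult2a8 lies at 602 to 947 TPM, above all other genes, and the points of Sult1b1 and Sult5a1 cover the same range.

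Sult3a1, an amine sulfotransferase that is female-predominant in mouse liver, was at the floor. Its rounded count was 0 in 8 mice and at most 2 in the other 4, which is 0 to 0.102 normalized CPM. A count of 0 allows up to 3 counts, or 0.140 to 0.203 normalized CPM in these libraries, so no difference between groups was detectable at this depth. That limit covers counting error only. Of the 31-base words of Sult3a1 transcripts, 13.8% also occur in Sult3a2, so reads of these paralogs could be divided between them, and Sult3a2 was at 0 in all 12 mice.

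**Figure D2:**
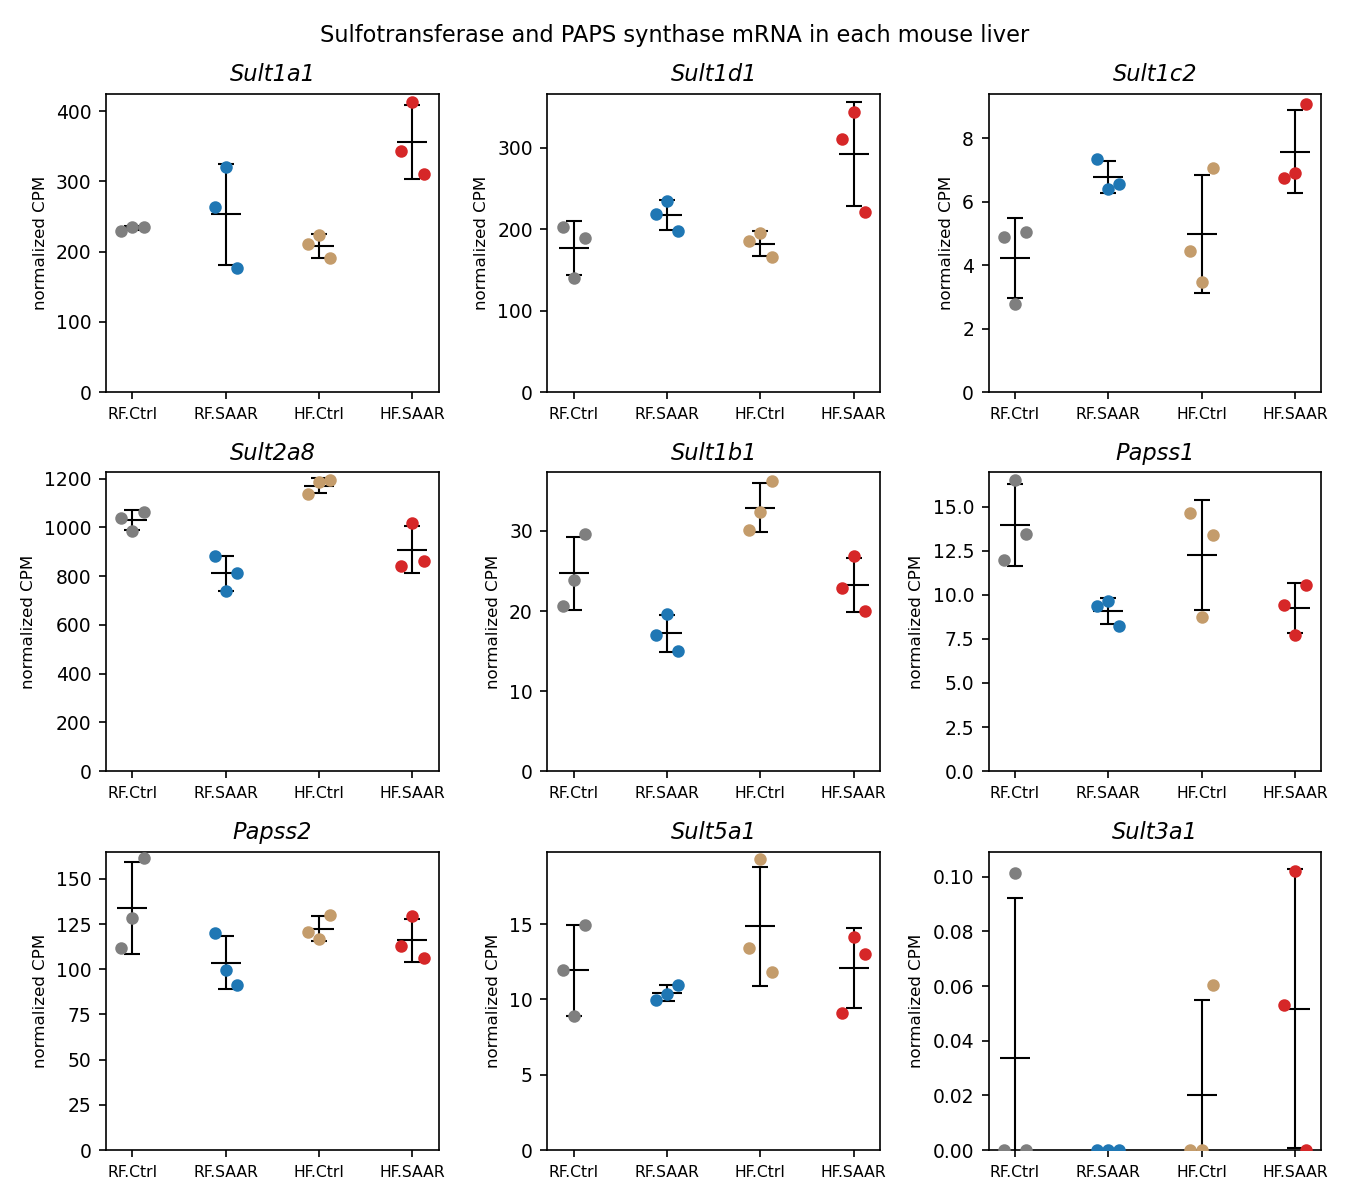
Normalized CPM (y axes from 0, a scale for each gene) of the 9 genes in each mouse by group, with mean and SD in black (n = 3). Sult2a8 and Sult1b1 points of SAAR mice lie under those of their own controls at both fat levels, and the 3 HF.SAAR points of Sult1a1 lie above all HF.Ctrl points.

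The first question was how restriction changed these mRNAs at regular fat. In RF.SAAR vs. RF.Ctrl, 0 of 8 genes were called by edgeR, against 0.578% of all features in the higher and 0.863% in the lower direction. Of the 8, 5 had an unadjusted p below 0.05, as had 13.4% of all features. DESeq2, which called 2.13% of its features higher and 2.66% lower, called 0 of the genes higher and 1, Sult2a8, lower (adjusted p = 0.0288). In every RF.SAAR mouse 3 of 8 genes (Sult2a8, Sult1b1 and Papss1) lay below every RF.Ctrl mouse, against 9.67% of all features, and 1 of 8 (Sult1c2) lay above, against 8.51%. At high fat, in HF.SAAR vs. HF.Ctrl, 1 of 8 genes was called higher, Sult1a1, and 0 were called lower, against 0.956% and 0.949% of all features. Here too 5 had an unadjusted p below 0.05, against 12.5% of all features. DESeq2 called Sult1a1 and Sult1d1 higher and Sult2a8 lower, against 2.5% and 2.27% of its features. Groups did not overlap for Sult1a1 and Sult1d1, which were higher (2 of 8, against 8.85%), nor for Sult2a8 and Sult1b1, which were lower (2 of 8, against 8.98%). Over both fat levels, SAAR vs. Ctrl had 2 of 8 genes called higher (Sult1a1 and Sult1d1) and 3 called lower (Sult2a8, Sult1b1 and Papss1), where 3.15% of all features were called higher and 3.67% lower. Of the 8, 7 had an unadjusted p below 0.05, against 20.2% of all features. DESeq2 called 3 higher, Sult1c2 being the addition, and the same 3 genes lower, against 4.6% and 4.39% of its features. The comparison over both fat levels is the average of the first and the second and shares all their mice. The median log2 fold change over both fat levels was -0.23 for the 8 genes and 0.00 for all features, with 3 of the 8 positive and 5 negative.

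**Figure D3:**
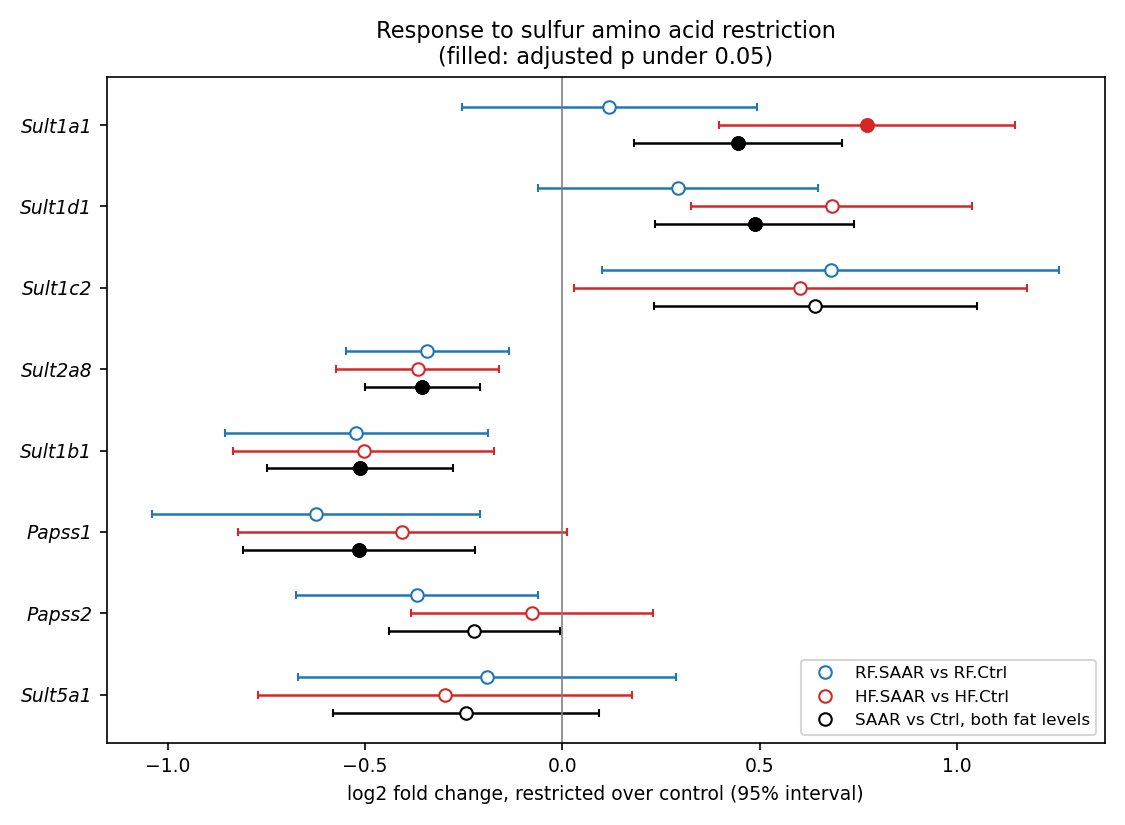
Log2 fold change (x axis) of SAAR over control with its 95% interval for the 8 tested genes, at regular fat, at high fat and over both. Filled points have an adjusted p under 0.05, which are Sult1a1 at high fat and Sult1a1, Sult1d1, Sult2a8, Sult1b1 and Papss1 over both fat levels.

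Sult1a1 lies at chr7:126672865-126676432 on the minus strand and encodes an enzyme for simple phenols. It had 229.6, 236 and 234 normalized CPM in the RF.Ctrl mice and 263, 319.7 and 177 in the RF.SAAR mice. It had 211, 224 and 191 in the HF.Ctrl mice and 343, 413 and 310.2 in the HF.SAAR mice. RF.SAAR mice lay on both sides of a narrow RF.Ctrl range, while all HF.SAAR mice lay above all other groups but for RF.SAAR replicate 2. The log2 fold change was 0.12 ± 0.17 (SE, n = 3 against 3) at regular fat (edgeR, adjusted p = 0.863) and 0.77 ± 0.17 at high fat (adjusted p = 0.0387), which is 1.71-fold. Over both fat levels Sult1a1 rose by a log2 fold change of 0.45 ± 0.12 (adjusted p = 0.0460). The difference between the responses at high and regular fat was 0.65 ± 0.24 on the log2 scale (adjusted p = 0.999), so the responses were not shown to differ. Of its 31-base words 9.35% occur in transcripts of other genes, most of them in Gm6939, so a part of its reads could be shared. The call at high fat was kept only without RF.SAAR replicate 2 or RF.SAAR replicate 3 and was lost without any of the other 10 mice (adjusted p up to 0.147), and the call over both fat levels was kept only without RF.SAAR replicate 3 or HF.SAAR replicate 3 (adjusted p otherwise up to 0.103). Without RF.SAAR replicate 2 the regular-fat value turned to -0.08.

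Sult1d1 lies at chr5:87554645-87569027 on the minus strand. Its mRNA had 203, 140.2 and 189 normalized CPM in the RF.Ctrl mice and 218, 235 and 198 in the RF.SAAR mice. The HF.Ctrl mice had 186, 195 and 166, and the HF.SAAR mice 311, 344 and 221. The 3 HF.SAAR mice were all above the HF.Ctrl mice, and at regular fat the lowest SAAR mouse fell within the control range. Its log2 fold change was 0.29 ± 0.17 at regular fat (adjusted p = 0.504) and 0.68 ± 0.17 at high fat (adjusted p = 0.0559). Over both fat levels Sult1d1 rose by 0.49 ± 0.12 on the log2 scale (adjusted p = 0.0237, edgeR), or 1.40-fold. The difference between fat levels was 0.39 ± 0.23 (adjusted p = 0.999). No 31-base word of Sult1d1 or Sult1b1 occurs in another gene of the tables. The call over both fat levels was lost with effective-length offsets (adjusted p = 0.0593) and (adjusted p up to 0.0621) without RF.Ctrl replicate 2, RF.SAAR replicate 2, HF.Ctrl replicate 1 or 3, or HF.SAAR replicate 1 or 2, while at high fat a call appeared (adjusted p down to 0.0157) without RF.Ctrl replicate 2 or HF.SAAR replicate 3.

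Sult1b1, whose enzyme sulfonates thyroid hormones, is the neighbour of Sult1d1, at chr5:87513339-87538195 on the same strand, with 16449 bases between them. It moved the other way. RF.Ctrl mice had 20.6, 23.9 and 29.6 normalized CPM and RF.SAAR mice 17.0, 19.7 and 15.0. HF.Ctrl mice had 30.1, 32.4 and 36.2 and HF.SAAR mice 22.8, 26.8 and 20.0. At each fat level every SAAR mouse was below every control mouse. The log2 fold changes were -0.52 ± 0.15 at regular fat (adjusted p = 0.127) and -0.50 ± 0.15 at high fat (adjusted p = 0.134). Over both, Sult1b1 fell by 0.51 ± 0.11 on the log2 scale (adjusted p = 0.0130, edgeR), 1.43-fold lower, a call that was kept when any 1 of the 12 mice was left out. In TPM, the groups overlapped at both fat levels. The ratio of Sult1d1 to Sult1b1 in normalized CPM was 5.86 to 9.85 in RF.Ctrl and 12.0 to 13.2 in RF.SAAR. It was 4.57 to 6.16 in HF.Ctrl and 11.05 to 13.6 in HF.SAAR, so this ratio did not overlap between diets at either fat level. The ratio was chosen after its values were seen and carries no test.

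The reads of Sult1b1 were not assigned alike to its 3 annotated transcripts. ENSMUST00000031199.10 begins at the upstream start shown above, ENSMUST00000117455.7 at the second start, at base 87536222, and ENSMUST00000120150.1 further in, at base 87535146. The second-start transcript took 15.0%, 11.9% and 14.6% of the reads of the gene in RF.Ctrl mice and 28.1%, 26.0% and 28.7% in RF.SAAR mice. In HF.Ctrl mice it took 13.5%, 10.3% and 7.28%, and in HF.SAAR mice 23.6%, 24.8% and 16.1%. Its share was higher in every SAAR mouse than in every control mouse at the same fat level. The upstream-start transcript was at 10.5 to 16.1 normalized CPM for RF.Ctrl against 7.21 to 7.77 for RF.SAAR, and at 13.8 to 21.4 for HF.Ctrl against 9.07 to 11.3 for HF.SAAR. The second-start transcript had 2.86 to 4.32 and 4.31 to 5.11 at regular fat, and 2.64 to 4.08 and 3.22 to 6.64 at high fat, with overlap at both. The innermost transcript, ENSMUST00000120150.1, had 7.01 to 9.27 in RF.Ctrl and 3.39 to 7.34 in RF.SAAR, with overlap. It was lower without overlap at high fat, with 9.36 to 15.3 in HF.Ctrl and 6.95 to 8.92 in HF.SAAR. Only 125 of the 2582 words of the second-start transcript are its own among the 3, so little of its length is particular to it, which limits the split. The shares were chosen after their values were seen and carry no test.

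**Figure D4:**
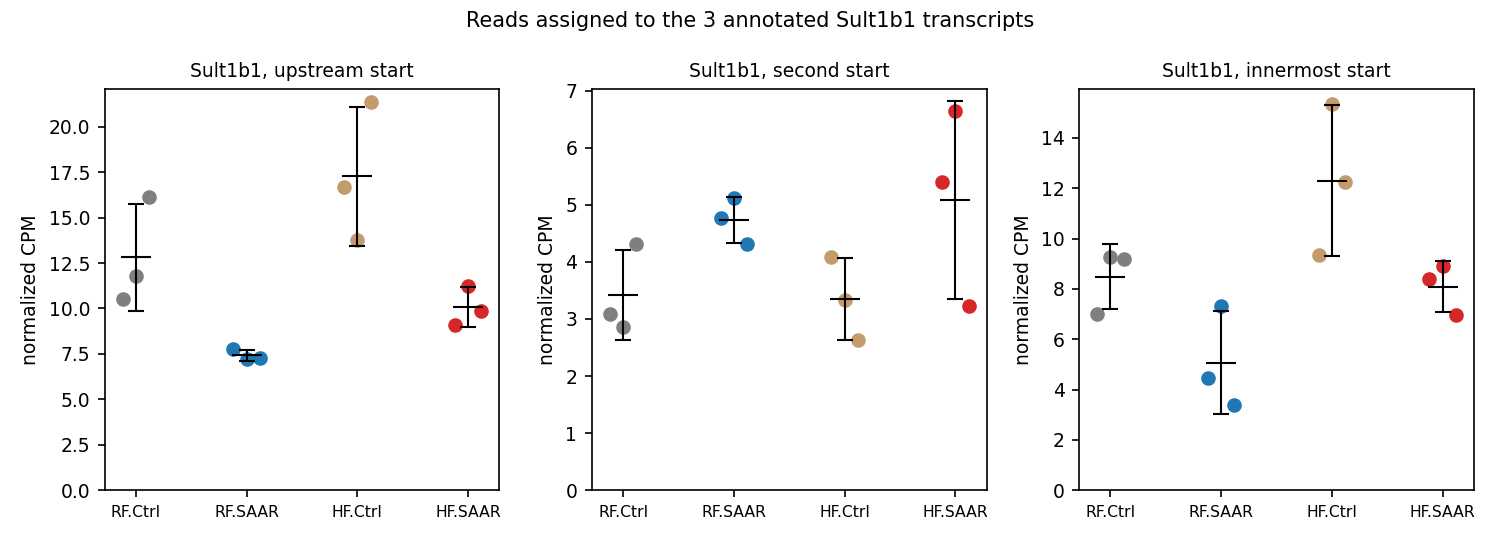
Normalized CPM (y axes from 0) assigned to each of the 3 annotated Sult1b1 transcripts in every mouse, with mean and SD (n = 3 per group). The upstream-start transcript lies lower in SAAR mice at both fat levels. The innermost-start transcript lies lower without overlap at high fat only, and the second-start transcript at neither fat level.

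Sult2a8 lies at chr7:14410686-14446769 on the minus strand. It had 1039, 984 and 1064 normalized CPM in the RF.Ctrl mice and 882, 739 and 815 in the RF.SAAR mice. It had 1135, 1184 and 1192 in the HF.Ctrl mice and 843, 1019 and 862 in the HF.SAAR mice. No SAAR mouse reached a control mouse of its own fat level. The log2 fold change was -0.34 ± 0.10 at regular fat (adjusted p = 0.1105) and -0.37 ± 0.10 at high fat (adjusted p = 0.0767). Over both fat levels Sult2a8 fell by 0.35 ± 0.07 on the log2 scale (adjusted p = 0.00734, edgeR), 1.28-fold lower. This call was kept when any 1 of the 12 mice was left out, and at high fat Sult2a8 was called (adjusted p = 0.0403) without HF.SAAR replicate 2. It depended on the scale, however. With library size alone the value was -0.18 (adjusted p = 0.08803), which is lower still against the shift of 0.17 in all features, and in TPM the groups overlapped, with 719 to 816 in RF.Ctrl, 602 to 853 in RF.SAAR, 650.4 to 947 in HF.Ctrl and 760.2 to 783 in HF.SAAR. Its main transcripts from near the upstream start (ENSMUST00000063509.10, 42.8% to 49.2% of its reads) and the downstream start (ENSMUST00000168252.8, 32.0% to 42.3%) had overlapping shares between diets at each fat level. Only 2 words of the first transcript and 0 of the second are absent from all other Sult2a8 transcripts, which limits this split.

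The make-up of the sulfotransferase pool was compared within each mouse, which needs no scaling between mice. Sult2a8 made up 67.3% to 69.0% of the summed TPM of the 7 Sult genes in RF.Ctrl and 54.1% to 66.9% in RF.SAAR, and 68.9% to 73.6% in HF.Ctrl and 54.3% to 57.6% in HF.SAAR. Sult1a1 made up 19.8% to 21.8% in RF.Ctrl and 19.6% to 31.6% in RF.SAAR. At high fat it made up 15.6% to 18.9% in controls and 28.9% to 30.3% in SAAR mice. Sult1d1 made up 6.39% to 9.67% in RF.Ctrl, 10.1% to 11.4% in RF.SAAR, 7.23% to 8.31% in HF.Ctrl and 10.4% to 13.6% in HF.SAAR. The shares of Sult2a8 and Sult1d1 therefore did not overlap between diets at either fat level, while those of Sult1a1 overlapped at regular fat only. RF.SAAR replicate 3 was near the RF.Ctrl mice in its share of Sult2a8 (66.9%) and below all of them in that of Sult1a1 (19.6%). Shares of 1 pool are not independent, and they carry no test. The summed TPM itself was 944 to 1286 in HF.Ctrl and 1359 to 1417 in HF.SAAR, and 1068 to 1196 in RF.Ctrl and 1112 to 1377 in RF.SAAR.

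**Figure D5:**
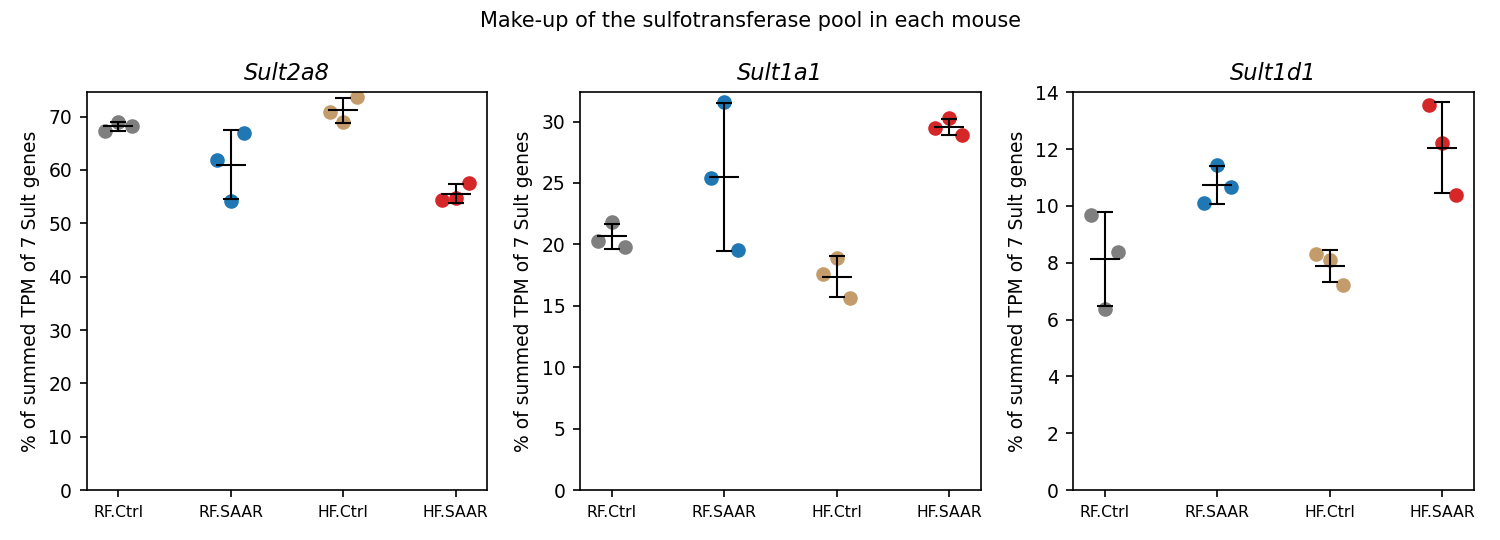
Percent (y axes from 0) of the summed TPM of 7 Sult genes held by Sult2a8, Sult1a1 and Sult1d1 in each mouse, with mean and SD (n = 3 per group). HF.SAAR mice hold 54.3% to 57.6% as Sult2a8 against 68.9% to 73.6% in HF.Ctrl.

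Papss1 and Papss2 supply PAPS to all sulfotransferases. Papss1, at chr3:131564768-131643671 on the plus strand, had 11.9, 16.5 and 13.5 normalized CPM in the RF.Ctrl mice and 9.35, 9.65 and 8.23 in the RF.SAAR mice. It had 14.7, 8.74 and 13.4 in the HF.Ctrl mice and 9.44, 7.72 and 10.5 in the HF.SAAR mice. All RF.SAAR mice were below all RF.Ctrl mice, and at high fat HF.Ctrl replicate 2 lay among the SAAR mice. The log2 fold change was -0.62 ± 0.19 at regular fat (adjusted p = 0.145) and -0.41 ± 0.19 at high fat (adjusted p = 0.417). Over both Papss1 fell by 0.51 ± 0.14 on the log2 scale (adjusted p = 0.0384, edgeR), 1.43-fold lower. With offsets for the effective length of its transcripts, the value was -0.25 (adjusted p = 0.516), with library size alone it was -0.35 (adjusted p = 0.148), and in TPM the groups overlapped at both fat levels. The call was kept only without RF.Ctrl replicate 1, HF.Ctrl replicate 2 or HF.SAAR replicate 3 (adjusted p otherwise up to 0.109).

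Papss2, at chr19:32595790-32667187 on the plus strand, did not pass the test in any comparison. Its mRNA had 112, 129 and 161 normalized CPM in RF.Ctrl and 120.2, 99.5 and 91.4 in RF.SAAR, then 120.4, 117 and 130.1 in HF.Ctrl and 113, 129 and 106 in HF.SAAR. Diet groups overlapped at both fat levels. The log2 fold change was -0.37 ± 0.14 at regular fat (adjusted p = 0.265), -0.08 ± 0.14 at high fat (adjusted p = 0.899, and 0.090 with library size alone) and -0.22 ± 0.10 over both (adjusted p = 0.235). The 95% interval over both fat levels was -0.44 to -0.01. Its reads were divided differently, though. ENSMUST00000025833.6 took 78.3%, 81.3% and 87.1% in the RF.Ctrl mice, 62.6%, 59.2% and 71.7% in the RF.SAAR mice, 81.7%, 68.4% and 77.8% in the HF.Ctrl mice and 63.4%, 47.9% and 50.8% in the HF.SAAR mice. The share was lower in every SAAR mouse than in every control mouse of its fat level, and in a fit of transcripts in place of genes this transcript was called lower over both fat levels, with a log2 fold change of -0.66 (adjusted p = 0.0308). Most of the difference was assigned to ENSMUST00000236290.1, which begins at the same base, 32620005, ends 2 bases earlier and has none of its 3588 words to itself, so this split is uncertain.

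Sult1c2 and Sult5a1 were low and uncalled. Sult1c2, at chr17:53829637-53846339, had 4.87, 2.78 and 5.05 normalized CPM in RF.Ctrl and 7.34, 6.40 and 6.56 in RF.SAAR, with 4.46, 3.46 and 7.05 in HF.Ctrl and 6.73, 6.90 and 9.09 in HF.SAAR. RF.SAAR mice were all above RF.Ctrl mice, and at high fat HF.Ctrl replicate 3 overlapped the SAAR mice. Its log2 fold change was 0.68 ± 0.27 at regular fat (adjusted p = 0.275), 0.60 ± 0.27 at high fat (adjusted p = 0.363) and 0.64 ± 0.19 over both (adjusted p = 0.0613). It was called over both fat levels without HF.Ctrl replicate 3 (adjusted p = 0.0188) and by DESeq2 (adjusted p = 0.0252). Sult5a1, at chr8:123140192-123158315, had 8.90 to 19.3 normalized CPM, with diet groups overlapping at each fat level. Its log2 fold change was -0.19 ± 0.22 at regular fat (adjusted p = 0.815), -0.30 ± 0.22 at high fat (adjusted p = 0.662) and -0.24 ± 0.16 over both (adjusted p = 0.428), and the last has a 95% interval of -0.58 to 0.09.

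The second question was whether dietary fat moved these genes. In HF.Ctrl vs. RF.Ctrl, 0 of 8 were called, as were 0% of all features, and 1 had an unadjusted p under 0.05, against 3.67% of all. In HF.SAAR vs. RF.SAAR, 0 of 8 were called, against 0.0465% of all features, with 3 at an unadjusted p under 0.05, against 5.56% of all. All 8 log2 fold changes were positive in HF.SAAR vs. RF.SAAR, with a median of 0.19 against 0.01 for all features. The interaction of diet and fat had 0 calls (0.00664% of all features), with 1 at an unadjusted p under 0.05 (3.19% of all), and HF vs. RF over both diets had 0 (0.0398%), with 2 (5.82% of all). DESeq2 also called 0 of these genes in each of these 4 comparisons, where it called 0.195%, 0.56%, 0.107% and 0.705% of its features. Sult1b1 was higher on high fat in both diets, with no overlap. Its log2 fold change was 0.41 ± 0.15 in controls (adjusted p = 0.9997) and 0.43 ± 0.15 in SAAR mice (adjusted p = 0.778), and 0.42 ± 0.11 over both diets (adjusted p = 0.299). Sult2a8 of HF.Ctrl mice was also above that of RF.Ctrl mice without overlap, by 0.19 ± 0.10 (adjusted p = 0.9997), but not that of HF.SAAR mice above RF.SAAR (0.16 ± 0.10, adjusted p = 0.969). Over both diets its value was 0.17 ± 0.07 (adjusted p = 0.725). Every HF.Ctrl mouse was above every RF.Ctrl mouse for 2 of 8 genes, against 4.1% of all features, and below for 1 of 8, Sult1a1, against 4.46%. In HF.SAAR vs. RF.SAAR this held for 1 of 8 genes, Sult1b1, against 5.47%.

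Pancreatic markers were high in single mice, most of them on high fat, and their sums overlapped between groups. Their sum ranged over 84.8 to 1825 normalized CPM for RF.Ctrl, 44.1 to 103 for RF.SAAR, 83.3 to 7640 for HF.Ctrl and 75.4 to 20038 for HF.SAAR, with 31 of 34 markers tested and Cela3a at 0 in all mice. By edgeR 0 of the 31 were called in any comparison. In HF.SAAR vs. RF.SAAR, though, all 31 were positive, with a median log2 fold change of 7.20. There 30 had an unadjusted p under 0.05, against 5.56% of all features, and 4 were higher without overlap, against 5.47%. In HF vs. RF over both diets all 31 were positive with an unadjusted p under 0.05, against 5.82% of all features. DESeq2 called 22 markers higher in HF.SAAR vs. RF.SAAR, against 0.56% of its features called in either direction. In HF vs. RF over both diets it called 23 higher, against 0.705%. Without the 5 mice above 1000 normalized CPM, which leaves 1 mouse in each high-fat group and assumes that it varies like the others, 0 of 8 genes were called in any comparison. Over both fat levels the log2 fold changes were then 0.47 for Sult1a1 (adjusted p = 0.343), 0.65 for Sult1d1 (adjusted p = 0.06498), -0.66 for Sult1b1 (adjusted p = 0.0687), -0.43 for Sult2a8 (adjusted p = 0.129) and -0.62 for Papss1 (adjusted p = 0.104), each at least as far from 0 as with all mice. Sult1a1 at high fat was 0.83 (adjusted p = 0.558). With the pancreatic sum as a covariate, Sult1a1 was 0.77 at high fat (adjusted p = 0.0547) and 0.45 over both fat levels (adjusted p = 0.0550). The sum of the 5 cholangiocyte markers was also lower in SAAR mice, at 42.4448 to 61.3 normalized CPM for RF.Ctrl against 35.7 to 42.4335 for RF.SAAR. At high fat it was 42.5 to 57.3 for HF.Ctrl against 34.8 to 38.1 for HF.SAAR. Most of this sum in each mouse was Spp1, the only 1 of 5 called lower over both fat levels (3.67% of all features were). Log2 fold changes were negative for 5 of 5 markers at regular fat, 3 of 5 at high fat and 4 of 5 over both. Sums of Kupffer cell (6 genes), endothelial (5), stellate cell (6) and adipose and muscle (6) markers overlapped between diets at each fat level. Of their members, the endothelial Lyve1 was called higher over both fat levels (log2 fold change 0.55 ± 0.11, adjusted p = 0.00781), and the stellate cell marker Lrat lower at regular fat (-0.86 ± 0.19, adjusted p = 0.0438) and over both (-0.59 ± 0.14, adjusted p = 0.0188). Their part in the values above was not tested.

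Male-biased liver genes, and 1 female-biased gene, also moved with the diets. The sum of 11 male-biased genes was 20212 to 24286 normalized CPM for RF.Ctrl against 15696 to 16403 for RF.SAAR, and 19793 to 31048 for HF.Ctrl against 8932 to 11867 for HF.SAAR. Of them 4 fell at regular fat, 7 at high fat and 10 over both fat levels, against the 0.863%, 0.949% and 3.67% of all features given above. The 12 female-biased genes, which include Sult1e1, Sult2a1 and Sult3a1, summed to 4.09 to 8.44 in RF.Ctrl and 13.1 to 24.9 in RF.SAAR, and to 3.68 to 5.20 in HF.Ctrl and 26.0 to 62.3 in HF.SAAR. Most of this sum in SAAR mice was Cyp17a1, at 12.1 to 24.4 in RF.SAAR and 23.3 to 58.3 in HF.SAAR. Cyp17a1 had 3.73 to 6.23 in RF.Ctrl and 1.57 to 2.53 in HF.Ctrl. Only 3 of the 12 were tested. Of these 1, Cyp17a1, was called higher at regular fat, at high fat and over both, against 0.578%, 0.956% and 3.15% of all features. The part of these shifts in the values of the sulfotransferases was not tested.

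Of 14 other cytosolic sulfotransferases, 3 passed the filter. Sult2a7 had 2.78, 2.12 and 1.86 normalized CPM in RF.Ctrl and 1.21, 0.891 and 0.762 in RF.SAAR, and 2.36, 2.20 and 2.95 in HF.Ctrl and 1.64, 2.20 and 0.885 in HF.SAAR. It fell over both fat levels by 0.95 ± 0.25 on the log2 scale (edgeR, adjusted p = 0.0338), with every SAAR mouse below its controls, at high fat only narrowly. Sult1e1, the estrogen sulfotransferase, had 0.0506 to 0.453 in RF.Ctrl and 0.0524 to 0.508 in RF.SAAR, against 0.482 to 1.01 in HF.Ctrl and 0.746 to 2.17 in HF.SAAR. Its log2 fold change for HF vs. RF over both diets was 2.35 ± 0.56 (adjusted p = 0.233 in edgeR and 0.0190 in DESeq2). RF.Ctrl replicates 2 and 3 and RF.SAAR replicates 1 and 2 were at or below 3 counts. That is 0.152 to 0.180 normalized CPM in the regular-fat libraries, so the size of this change rests on few counts. Sult4a1 was uncalled. Sult1c1, Sult2a3, Sult2a4, Sult2a5, Sult2a6, Sult3a2 and Sult6b2 had no counts in any mouse, while Sult2a1, Sult2a2, Sult2b1 and Sult6b1 stayed at or below 0.6796 normalized CPM.

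Around the sulfotransferases, the genes that carry, form and release sulfate mostly stayed uncalled. Of the sulfate and PAPS transporters, 7 of 8 were tested and 0 were called by edgeR or DESeq2 at regular fat, at high fat or over both fat levels (0, 1 and 0 at an unadjusted p under 0.05). The hepatic sulfate exchanger Slc26a1 had a log2 fold change of 0.10 ± 0.10 over both fat levels (adjusted p = 0.634). Of 12 listed genes of sulfite and sulfate formation, 11 were tested and 0 were called by edgeR, with 0, 2 and 4 at an unadjusted p under 0.05. DESeq2 called 1 of them, Got1, higher at high fat (adjusted p = 0.0456, against 0.229 in edgeR). Sulfite oxidase (Suox) had -0.16 ± 0.10 (adjusted p = 0.417). Both tested PAP phosphatases, which clear the by-product of sulfonation, were uncalled by both tools, with 1 gene, 0 and 1 gene at an unadjusted p under 0.05. Bpnt1 had -0.22 ± 0.07 (adjusted p = 0.0862). None of 25 tested Golgi sulfotransferases was called by either tool, with 1, 1 and 2 at an unadjusted p under 0.05, and their median log2 fold change over both fat levels was -0.02.

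Among 12 tested sulfatases and their activators, which remove sulfate from lipids and glycans, 1 rose and 1 fell, at each fat level and over both. Of all features, 0.578% were called higher and 0.863% lower at regular fat. At high fat the shares were 0.956% and 0.949%, and over both fat levels 3.15% and 3.67%. Arsa, the lysosomal arylsulfatase of sulfatide breakdown, had 34.0, 31.4 and 30.9 normalized CPM in RF.Ctrl and 44.9, 51.4 and 52.4 in RF.SAAR. It had 32.8, 26.3 and 35.0 in HF.Ctrl and 46.2, 50.4 and 56.5 in HF.SAAR, so it rose without overlap at both fat levels. Its log2 fold changes were 0.63 ± 0.12 (adjusted p = 0.0190) and 0.70 ± 0.12 (adjusted p = 0.00868) by edgeR. Sulf2, which removes sulfate from heparan sulfate outside the cell, had 13.6, 10.4 and 11.9 in RF.Ctrl against 5.60, 6.55 and 5.95 in RF.SAAR, and 15.4, 11.9 and 13.4 in HF.Ctrl against 6.73, 6.18 and 6.38 in HF.SAAR. It fell by 0.99 ± 0.15 at regular fat (adjusted p = 0.00514) and by 1.07 ± 0.14 at high fat (adjusted p = 0.00166) on the log2 scale.

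Among the 8 tested genes, the most alike over the 12 mice in log2 CPM were Sult1b1 and Sult2a8 (Pearson's r = 0.84) and Sult1a1 and Sult1d1 (r = 0.81), and the least alike were Sult1d1 and Papss1 (r = -0.74). These mice differ in diet and library, so the correlations describe shared patterns and are given without a test. Outside the 9 genes, the closest pattern to Sult2a8 was that of Otc, a urea cycle enzyme (r = 0.96), and to Papss1 that of Entpd6 (r = 0.95). Sult1a1 was closest to 9030619P08Rik (r = 0.94), Sult1b1 to Gm3839 (r = 0.93) and, next, the cytochrome P450 gene Cyp2c50 (r = 0.93), and Sult1d1 to Zmat5 (r = 0.93) and then Glrx, a glutaredoxin (r = 0.92). Papss2 was closest to Serpind1, which encodes heparin cofactor II (r = 0.92), Sult1c2 to Endod1 (r = 0.91) and Sult5a1 to Gpr160 (r = 0.88).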

How the data were processed

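Liver RNA of 12 mice was enriched for polyadenylated transcripts and sequenced as read pairs. Reads were trimmed (cutadapt) and quantified (kallisto) by the authors on Ensembl mouse transcripts (GRCm38). The deposited values are, for each of 118489 transcripts and each mouse, estimated counts, effective lengths and TPM, with no normalization between mice. The deposited TPM are length-scaled and sum to a fixed total. Here, estimated counts were summed by gene with GENCODE M21 (116816 transcripts, 36047 genes). The other 1673 transcripts (0.704% to 1.80% of counts) stayed as features of their own. Sums were rounded, and edgeR 4.0.16 in R 4.3.3 tested them (TMM, filterByExpr by group, robust quasi-likelihood F-test, all 12 mice), and Benjamini-Hochberg adjustment ran over 15061 features within each comparison. The SE is the log2 fold change divided by the square root of F. The 9 genes and all lists were chosen with earlier results of these data known. Named besides the 9 genes are listed genes that were called (at most 4 per list and comparison), other cytosolic sulfotransferases, and the 3 genes most like each member. Slc26a1, Suox, Bpnt1 and Got1 were added after their values were seen. The fit was tested on simulated data with 200 changed genes. Alternatives were RLE factors, library size alone, other count filters, effective-length offsets, the compared groups alone, DESeq2 1.42.0, transcripts in place of genes, a pancreatic covariate and leaving out each mouse, and, chosen after seeing the data, leaving out 5 mice and a term for sets of consecutive titles. The labels do not say whether separate extractions were made, so p-values measure the spread between these samples. Promoters were taken from RefSeq (GRCm38.p6), with entries for all 9 genes.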

Additional observations from a re-analysis of the deposited data

How the results depend on the processing

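The labels carry no replicate numbers, and the main test did not pair mice. The titles run in 3 sets of 4, each with 1 mouse per group, and the labels do not say what a set is. Deviations from the group means correlated above 0.1 in 13 of 18 pairs of mice of the same set (median r = 0.19) and in 3 of 36 pairs of different sets, and 10 of 12 mice correlated best with a mouse of their own set. With the set as a term no call was lost, Sult1d1 was also called at high fat (adjusted p = 0.0393) and Sult1c2 over both fat levels (adjusted p = 0.0137), and calls over all features became 132 higher and 204 lower at regular fat (87 and 130 without it). Within sets Sult1c2 and Sult1d1 were higher, and Papss1, Sult1b1 and Sult2a8 lower, in the SAAR mouse in 3 of 3 sets at each fat level. Sult1a1 was higher in 2 of 3 sets at regular fat and 3 of 3 at high fat. Sult5a1 and Papss2 were higher in 1 of 3 sets at each fat level. The share of all features with 1 direction in every set was not counted, so these directions carry no test. Counts of the 8 tested genes called in each direction moved under these settings, and the cause was not tested. At regular fat DESeq2 called 1 lower in place of 0. At high fat the count called higher was 2 in place of 1 with library size alone, with no low-count filter, with at least 10 counts in every mouse, with the title set as a term and with DESeq2, with or without independent filtering, and 0 with the pancreatic covariate, with transcripts in place of genes (which tests more features) and without the 5 mice over 1000 CPM of pancreatic markers. DESeq2, with or without independent filtering, called 1 lower in place of 0. For SAAR vs. Ctrl over both fat levels, the count called higher was 2, but 3 with library size alone, with no low-count filter, with the title set as a term and with DESeq2, 1 with effective-length offsets and with the covariate, and 0 with transcripts and without the 5 mice. The count called lower was 3, but 2 with effective-length offsets, 1 with library size alone and 0 without the 5 mice. Leaving out each mouse in turn gave 0 to 1 called higher and 0 to 1 called lower at high fat, and 0 to 2 called higher and 2 to 3 called lower over both fat levels. Few signs turned. Sult5a1 at regular fat was 0.20 with transcripts in place of genes and -0.36 to 0.00351 when each mouse was left out. Sult1a1 at regular fat was -0.084 to 0.32 when each mouse was left out. At high fat Papss2 was 0.090 with library size alone and Sult1c2 was -0.085 without the 5 mice. Of all 756 values of single genes recomputed under an alternative, 681 kept their direction and their side of the threshold, 51 lost a call, 19 gained one and 5 changed sign. Only values called in the main fit could lose a call. The call of Sult1a1 at high fat was kept in 11 of 24 settings. Over both fat levels, of 23 settings, calls were kept in 10 for Sult1a1, 14 for Sult1d1 and 10 for Papss1. They were kept in 22 for Sult1b1 and 21 for Sult2a8. Leaving out the 5 mice, the title set and DESeq2 without independent filtering were chosen after seeing the data. With 3 mice a group, differences of the size seen here sit near the threshold, and depth limits Sult3a1.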
